A study of Glycine max with 12 samples.

Results

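The HD2C loci are 3 soybean genes, Glyma.12G084700 and Glyma.12G181400 on chromosome 12 and Glyma.13G319500 on chromosome 13, of 52660 loci in the count table. They are the loci to which the study gives the name of Arabidopsis HD2C among its drought genes. The study took that list from loci that differed between GmNAC81-3 and BR16 leaves at V3 and, by its own calls, did not also change with age in BR16. The values that chose them are therefore the counts of the V3 libraries and, through that exclusion, of the BR16 R6 libraries. All 3 loci passed the filter on low counts, which left 39443 loci for testing. No start or end position is given here, because no annotation of the build Wm82.a2.v1 was used.

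RNA of the third leaf was sequenced from 4 groups of 3 plants. These were GmNAC81-3 at R6 (80 days after germination, DAG), BR16 at R6 (80 DAG), GmNAC81-3 at V3 (20 DAG) and BR16 at V3 (20 DAG). BR16 is a soybean cultivar, here untransformed, and GmNAC81-3 is 1 transgenic line that overexpresses the NAC transcription factor GmNAC81 from the 35S promoter, a viral promoter active in most plant tissues. V3 is a young vegetative stage, and at R6 the pods hold full-size green seeds and leaves approach senescence. All plants were grown under normal conditions, without a drought treatment.

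HD2 proteins are histone deacetylases found only in plants. They take acetyl groups off histone tails, which usually lowers transcription of the genes nearby, and they were first found in the nucleolus, where they act on ribosomal RNA genes. In Arabidopsis, HD2C takes part in responses to abscisic acid (ABA), salt and drought and can bind the deacetylase HDA6. The soybean genome carries many genes in duplicated copies, and the roles of these 3 loci in soybean are inferred from the Arabidopsis name alone.

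The 12 libraries held 42797825 to 77952663 counts. At V3, 44.1 to 58.5% of the counts of GmNAC81-3 libraries fell on 3 loci, against 32.1 to 38.5% in BR16 libraries. At R6 these shares were 38.6 to 54.2% and 37.5 to 47.6%. The TMM factors, which rescale libraries of unlike make-up, were 0.498 to 0.657 in GmNAC81-3 V3 and 0.931 to 1.45 in the other groups. GmNAC81-3 R6 replicate 1 had 54.2% of its counts on 3 loci and a factor of 0.931, so the factors did not simply follow these shares. Levels are given as CPM, the counts of a locus scaled to a common library size after the TMM correction. The 4 loci of rubisco activase, an enzyme of photosynthetic leaf tissue, had at least 2142 counts in every library. Their levels varied widely between libraries, from 34.2 to 548 CPM at Glyma.14G067000 and from 140 to 8945 CPM at Glyma.11G221000. The counts therefore show only that these transcripts were present. GmNAC81 (Glyma.12G022700, with the transgene entry) was called higher at V3, at 33.4 to 184 CPM in GmNAC81-3 against 3.58 to 7.26 CPM in BR16 (log2 fold change 4.11, SE 0.70, edgeR quasi-likelihood adjusted p = 0.0123). That call was lost without BR16 V3 replicate 2 or 3 (adjusted p up to 0.0651, edgeR quasi-likelihood) and in a fit of only the V3 groups (adjusted p = 0.0657, same test). At R6 it had 46.6 to 69.1 CPM in GmNAC81-3 and 11.3 to 60.7 CPM in BR16.

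Across the 4 groups, transcripts of all 3 HD2C loci were lowest in GmNAC81-3 V3 leaves, next in BR16 V3 leaves and highest at R6 in both genotypes. The V3 libraries chose the loci, so the low place of GmNAC81-3 V3 describes that choice. How many of all tested loci had GmNAC81-3 V3 below every other library was not counted, and shares for pairs of groups are given below. The CPM of a locus also depends on transcript length, which was not known here, so the levels of different loci are not compared with each other. In bulk leaf RNA, fewer cells of a type and less RNA per cell cannot be told apart.

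Glyma.12G084700 had 7.73, 6.51 and 7.75 CPM in GmNAC81-3 R6 replicates 1, 2 and 3, and 9.55, 9.20 and 7.38 CPM in those of BR16 R6. It had 2.51, 1.06 and 1.10 CPM in GmNAC81-3 V3 and 4.51, 3.26 and 5.07 CPM in BR16 V3. The GmNAC81-3 V3 libraries lay below all others, and every R6 library lay above every V3 library. The means were 7.33 ± 0.712 CPM in GmNAC81-3 R6, 8.71 ± 1.16 CPM in BR16 R6, 1.56 ± 0.826 CPM in GmNAC81-3 V3 and 4.28 ± 0.929 CPM in BR16 V3 (SD, n = 3 each). The lowest library, GmNAC81-3 V3 replicate 2, held 26 counts of this locus, with an exact 95% Poisson interval of 17 to 38.1 for counting error only, which is too narrow if both reads of a pair were counted.

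Glyma.12G181400 had 12.5, 14.6 and 21.7 CPM in GmNAC81-3 R6 replicates 1, 2 and 3, and 17.9, 15.5 and 19.8 CPM in those of BR16 R6. It had 6.77, 5.44 and 3.77 CPM in GmNAC81-3 V3 and 12.8, 9.86 and 14.1 CPM in BR16 V3. The GmNAC81-3 V3 libraries again lay below all others, while the GmNAC81-3 R6 libraries overlapped with those of BR16 R6 and of BR16 V3. The means were 16.3 ± 4.79 CPM in GmNAC81-3 R6, 17.7 ± 2.19 CPM in BR16 R6, 5.33 ± 1.5 CPM in GmNAC81-3 V3 and 12.2 ± 2.18 CPM in BR16 V3 (SD, n = 3 each). Its counts ran from 106 to 2019 per library.

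Glyma.13G319500 had 6.71, 7.49 and 14.4 CPM in GmNAC81-3 R6 replicates 1, 2 and 3, and 10.1, 9.97 and 11.9 CPM in those of BR16 R6. It had 4.26, 2.03 and 1.78 CPM in GmNAC81-3 V3 and 6.81, 5.65 and 8.62 CPM in BR16 V3. As for Glyma.12G181400, GmNAC81-3 V3 was below every other library, and GmNAC81-3 R6 overlapped with both groups of BR16. The means were 9.54 ± 4.25 CPM in GmNAC81-3 R6, 10.7 ± 1.08 CPM in BR16 R6, 2.69 ± 1.37 CPM in GmNAC81-3 V3 and 7.03 ± 1.5 CPM in BR16 V3 (SD, n = 3 each). Its counts ran from 50 to 1142 per library.

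**Figure D1:**
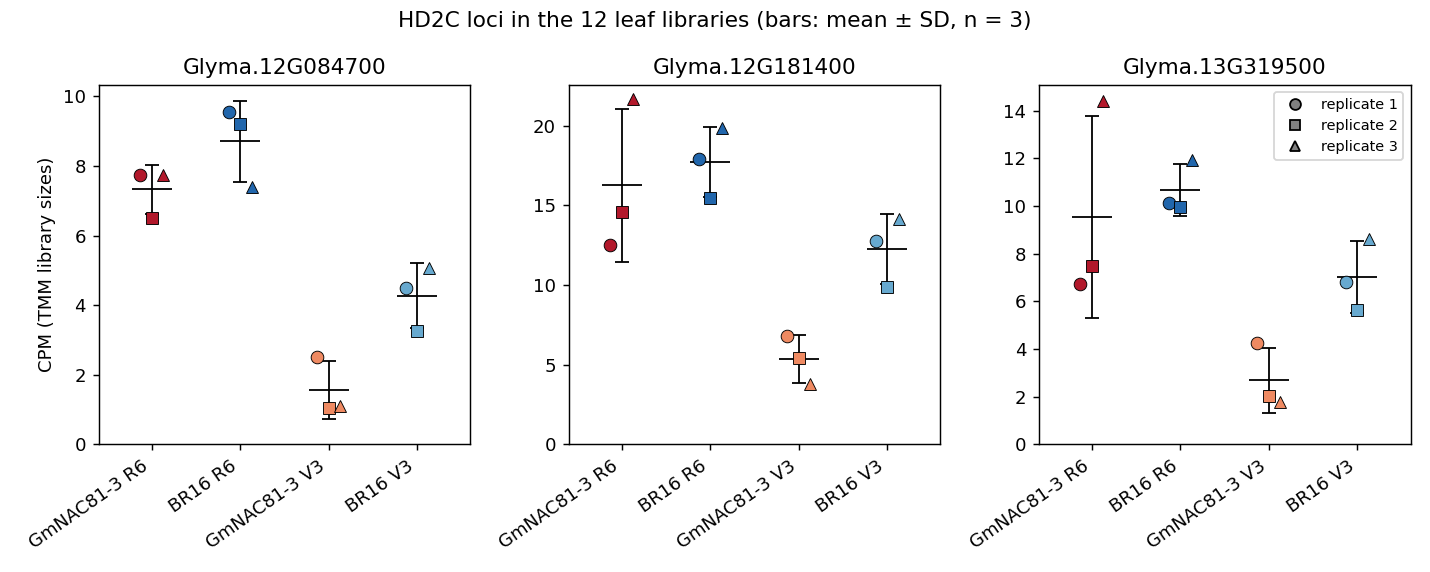
CPM on TMM-scaled library sizes of each HD2C locus (y axis, 1 scale per panel) in GmNAC81-3 R6, BR16 R6, GmNAC81-3 V3 and BR16 V3 (x axis). Points are libraries, with 1 shape per replicate number, and bars are mean ± SD (n = 3). In each panel the 3 GmNAC81-3 V3 points lie below all others, at up to 2.51, 6.77 and 4.26 CPM, and the 2 groups at R6 overlap. The V3 libraries chose the loci, so their low place describes that choice.

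The spread within groups was not the same for the 3 loci. In GmNAC81-3 R6 the coefficient of variation was 9.71% for Glyma.12G084700, 29.5% for Glyma.12G181400 and 44.5% for Glyma.13G319500. Replicate 3 of that group was the highest of all 12 libraries for Glyma.12G181400 and Glyma.13G319500, while for Glyma.12G084700 it held 7.75 CPM, beside 7.73 CPM in replicate 1. In GmNAC81-3 V3, replicate 1 was the highest library for all 3 loci. GmNAC81 itself reached 81.9, 184 and 33.4 CPM in GmNAC81-3 V3 replicates 1, 2 and 3. Replicates 2 and 3 held 26 and 31 counts of Glyma.12G084700, 134 and 106 of Glyma.12G181400 and 50 and 50 of Glyma.13G319500. With counts this close in 3 libraries, no relation between the levels of GmNAC81 and of the HD2C loci is read from them.

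The comparison of genotypes at R6 asks whether the HD2C loci differed in old leaves, and it is the only contrast that did not choose them, apart from the exclusion of loci that changed in BR16. No HD2C locus differed detectably between GmNAC81-3 R6 and BR16 R6. The log2 fold change was -0.25 for Glyma.12G084700 (95% interval -0.88 to 0.38, adjusted p = 0.964), -0.13 for Glyma.12G181400 (-0.69 to 0.44, adjusted p = 0.991) and -0.16 for Glyma.13G319500 (-0.92 to 0.60, adjusted p = 0.993) by the quasi-likelihood test of edgeR, adjusted over all tested loci after Benjamini and Hochberg. These intervals reach from 0.542-fold to 1.31-fold, from 0.620-fold to 1.35-fold and from 0.527-fold to 1.51-fold. Differences within these ranges remain compatible with the data, and the smallest difference that 3 libraries per genotype could detect was not tested. A call required an adjusted p under 0.05 together with a log2 fold change beyond 1 in either direction. No value inside these intervals reaches that fold limit, so the absence of a call does not exclude differences of these sizes. With edgeR 0 of the 3 loci were called, beside 0.0989% of all tested loci in this contrast. An unadjusted edgeR p under 0.05 was found for 0 of the 3, beside 6.86% of all tested loci. DESeq2 called 0 of the 3, beside 122 loci higher and 102 lower over all tested loci. The libraries of both genotypes overlapped at all 3 loci, where 13.7% of the tested loci did not overlap. Without GmNAC81-3 R6 replicate 1 the log2 fold change became 0.032 for Glyma.12G181400 and 0.039 for Glyma.13G319500, and without GmNAC81-3 R6 replicate 3 it became -0.39 and -0.59 for these loci.

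At V3 the fold changes describe how the loci were chosen, and no test is given for them. The log2 fold change of GmNAC81-3 V3 against BR16 V3 was -1.45 (SE 0.31) for Glyma.12G084700, -1.20 (SE 0.27) for Glyma.12G181400 and -1.38 (SE 0.37) for Glyma.13G319500. As ratios, GmNAC81-3 V3 leaves held 0.367, 0.435 and 0.385 of the BR16 V3 level. Of the members, Glyma.12G181400 lay nearest to the limit of -1. That all 3 lay beyond it follows largely from the study's choice of loci with a fold limit of the same size. A place beyond this limit is not by itself a call. The GmNAC81-3 V3 libraries lay below the BR16 V3 libraries at 3 of 3 loci, as they did at 12.3% of all tested loci. Among all tested loci, 7.21%, 9.59% and 7.77% had a lower fold change than these 3 loci. In this contrast 3.44% of the tested loci were called, 691 higher and 667 lower. With the replicate number as a block, though the numbers do not clearly pair the V3 libraries, these were 468 higher and 389 lower. The fold changes of the HD2C loci were then -1.50, -1.17 and -1.36.

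The size of this difference depended on the scaling of the libraries. Scaled by library totals in place of TMM, an alternative chosen after seeing the data, the log2 fold changes at V3 were -2.48, -2.25 and -2.43 for Glyma.12G084700, Glyma.12G181400 and Glyma.13G319500. The median of all tested loci was then -1.08, against -0.036 with TMM. Relative to that median, the 3 loci stood at -1.40, -1.17 and -1.35, close to their TMM values. A change of scaling moves all loci by about the same amount, so this closeness is largely built in. It does not tell which scaling is right. The same scaling turned the calls over all tested loci at V3 to 176 higher and 17501 lower, and those of GmNAC81-3 R6 against GmNAC81-3 V3 to 18682 higher and 3975 lower, against 6493 and 7917 with TMM.

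In GmNAC81-3, levels of all 3 HD2C loci were higher at R6 than at V3. The log2 fold change of GmNAC81-3 R6 against GmNAC81-3 V3 was 2.22 (SE 0.32) for Glyma.12G084700, 1.61 (SE 0.27) for Glyma.12G181400 and 1.82 (SE 0.37) for Glyma.13G319500, or 4.67-fold, 3.05-fold and 3.53-fold. The R6 libraries lay above the V3 libraries at 3 of 3 loci, as they did at 26.7% of all tested loci, and 91.8%, 86.9% and 88.8% of the tested loci had a lower fold change. Since the GmNAC81-3 V3 libraries also chose the loci, no test is given, and nothing is read from the background.

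In BR16 the levels at R6 were above those at V3 too. The log2 fold change of BR16 R6 against BR16 V3 was 1.03 (SE 0.29) for Glyma.12G084700, 0.54 (SE 0.26) for Glyma.12G181400 and 0.60 (SE 0.35) for Glyma.13G319500, or 2.04-fold, 1.45-fold and 1.52-fold. The R6 libraries lay above the V3 libraries at 3 of 3 loci, as they did at 29.7% of all tested loci, and 82.2%, 71.2% and 73.1% of the tested loci had a lower fold change. The study meant its drought list to hold loci that differed at V3 and had no call for age in BR16, so these values too are a description. With the counts and limits used here the list was not free of such loci. Of its 50 other tested loci, 23 were called between the BR16 stages, beside 34.7% of all tested loci. Among the members, Glyma.12G084700 also lay beyond the fold limit of 1, at 1.03. The R6 and V3 libraries were sequenced in different sets, and the effects of stage and set cannot be told apart in either genotype.

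The stage change in GmNAC81-3 minus that in BR16 was 1.20 (SE 0.42), 1.07 (SE 0.37) and 1.22 (SE 0.50) on the log2 scale for Glyma.12G084700, Glyma.12G181400 and Glyma.13G319500. Each is the genotype difference at R6 minus that at V3, so the V3 libraries that chose the loci set most of its size. It is given without a test. With library totals it was 2.05, 1.95 and 2.09, where the median of all tested loci was 0.895, against 0.019 with TMM.

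**Figure D2:**
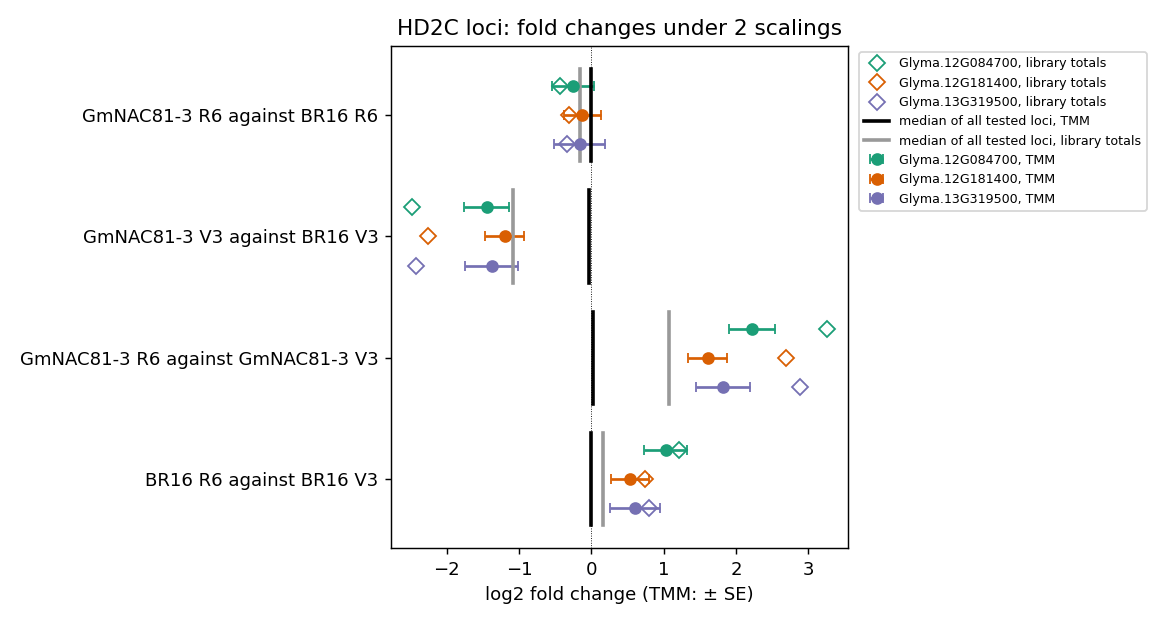
Log2 fold changes (x axis) of the 3 HD2C loci in 4 contrasts (y axis). Filled circles are TMM values with SE bars, open diamonds are values scaled by library totals, and black and grey lines are the medians of all tested loci under each scaling. At R6 the genotypes lie within 0.25 of 0 with TMM, and at V3 the library totals move the loci from between -1.45 and -1.20 to between -2.48 and -2.25 while the median moves to -1.08.

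Ratios of counts between the HD2C loci within a library do not depend on any scaling. Glyma.13G319500 over Glyma.12G181400 was 0.572 ± 0.0822 in GmNAC81-3 R6, 0.604 ± 0.0396 in BR16 R6, 0.491 ± 0.129 in GmNAC81-3 V3 and 0.572 ± 0.0380 in BR16 V3 (SD, n = 3 each), with overlapping libraries in all 4 groups. Glyma.12G084700 over Glyma.12G181400 was 0.474 ± 0.132 in GmNAC81-3 R6, 0.500 ± 0.115 in BR16 R6, 0.286 ± 0.0885 in GmNAC81-3 V3 and 0.348 ± 0.0151 in BR16 V3 (SD, n = 3 each). In BR16 this ratio ran from 0.372 to 0.595 at R6 and from 0.330 to 0.359 at V3, without overlap, whereas the GmNAC81-3 stages overlapped. Glyma.12G084700 over Glyma.13G319500 was 0.853 ± 0.308 in GmNAC81-3 R6, 0.828 ± 0.181 in BR16 R6, 0.576 ± 0.0512 in GmNAC81-3 V3 and 0.609 ± 0.0463 in BR16 V3 (SD, n = 3 each), with overlap between stages in both genotypes. An exact permutation test of 3 libraries against 3 cannot give a two-sided p below 0.1, so none was run.

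**Figure D3:**
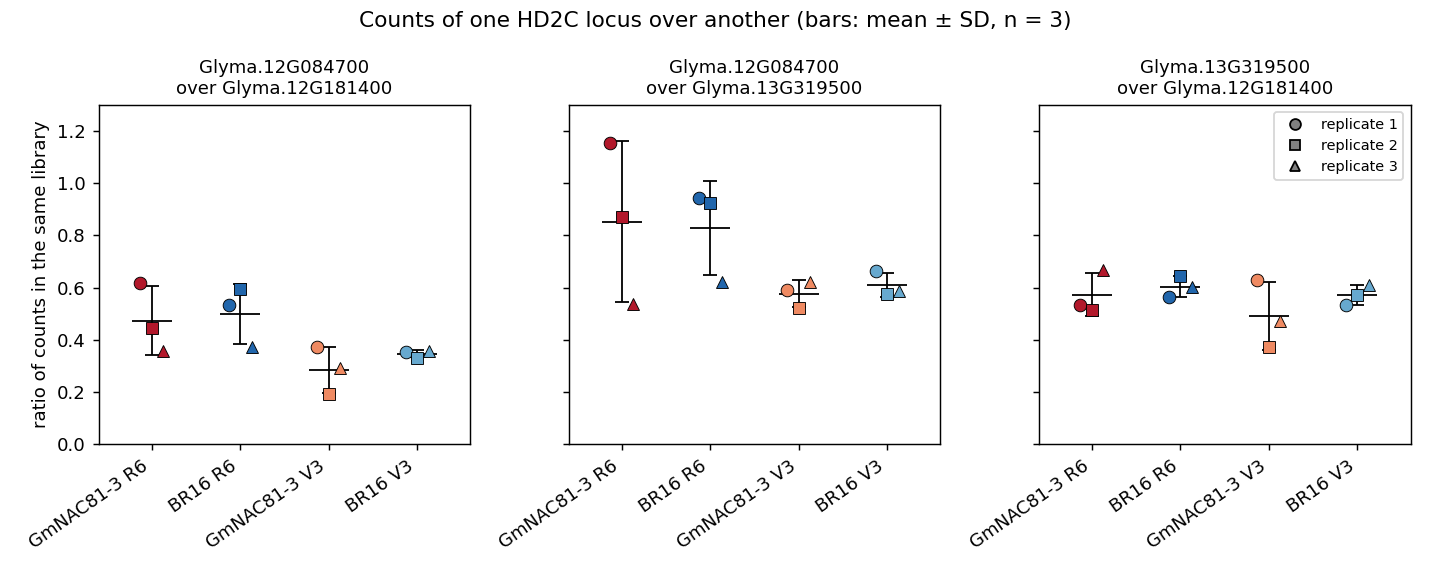
Ratio of the counts of one HD2C locus to those of another in the same library (y axis) in GmNAC81-3 R6, BR16 R6, GmNAC81-3 V3 and BR16 V3 (x axis), with mean ± SD bars (n = 3). The ratio of Glyma.13G319500 to Glyma.12G181400 has group means between 0.491 and 0.604, while both ratios with Glyma.12G084700 on top have higher means at R6 than at V3.

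The count table lists 1 transcript model for Glyma.12G084700, 1 for Glyma.12G181400 and 2 for Glyma.13G319500. The second model of Glyma.13G319500 took 35.9 ± 1.20% of the counts of the locus in GmNAC81-3 R6, 36.6 ± 0.840% in BR16 R6, 34.0 ± 2.00% in GmNAC81-3 V3 and 36.5 ± 4.54% in BR16 V3 (SD, n = 3 each). Single libraries ran from 32.0 to 41.6%, and those of the 2 genotypes overlapped at both stages. Whether reads were shared between these models, or between the 3 loci, was not tested.

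Over the 12 libraries, log2 CPM of Glyma.12G181400 and Glyma.13G319500 had a Pearson r of 0.983. Glyma.12G181400 was the locus most like Glyma.13G319500 of 39442 others, and Glyma.13G319500 had rank 3 for Glyma.12G181400. Glyma.12G084700 was less like both, with r of 0.942 and 0.946. After subtracting the group means, which leaves the variation between replicates, r was 0.911 for Glyma.12G181400 and Glyma.13G319500, 0.554 for Glyma.12G084700 and Glyma.12G181400, and 0.722 for Glyma.12G084700 and Glyma.13G319500. By these deviations, Glyma.12G181400 had rank 74 for Glyma.13G319500, and Glyma.13G319500 had rank 32 for Glyma.12G181400. These correlations share the 12 libraries, their scaling and the 4 groups and are descriptions. The V3 libraries among them also chose the loci, so a high r between members over the 12 libraries is partly built in.

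The 3 loci most like Glyma.12G084700 were Glyma.17G186500 (r = 0.990), Glyma.08G133700 (0.988) and Glyma.06G152500 (0.981). Those most like Glyma.12G181400, besides Glyma.13G319500, were Glyma.10G122200 (0.983) and Glyma.13G112900 (0.983), and those most like Glyma.13G319500, besides Glyma.12G181400, were Glyma.15G015500 (0.978) and Glyma.07G263800 (0.976). The median r to all other loci was 0.0668, 0.0723 and 0.0655 for Glyma.12G084700, Glyma.12G181400 and Glyma.13G319500, and 2.09%, 1.06% and 0.946% of the other loci had an r above 0.9. Glyma.17G186500 followed the pattern of Glyma.12G084700 closely, at 13.9 ± 1.57 CPM in GmNAC81-3 R6, 16.8 ± 0.849 CPM in BR16 R6, 2.93 ± 1.21 CPM in GmNAC81-3 V3 and 7.15 ± 1.16 CPM in BR16 V3 (SD, n = 3 each). With Spearman's rho in place of Pearson's r, 0, 1 and 1 of the 3 loci named for each HD2C locus stayed among its first 3, and with deviations from the group means none did, so these names depend on the measure.

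The study names HD2C among drought genes, a list with 51 other loci, of which 50 could be tested. It was chosen by the study on the V3 libraries, so its counts and values at V3 and between stages describe that choice, are not independent evidence of a direction and are given without p-values of single loci. At R6, the contrast that did not choose it, GmNAC81-3 and BR16 differed at 0 of the 50 loci by edgeR and by DESeq2. Over all tested loci, edgeR called 0.0989%, and DESeq2 called 122 loci higher and 102 lower. An unadjusted p under 0.05 was found for 3 of the 50, beside 6.86% of all tested loci. The median log2 fold change was -0.13 over the list and 0.0026 over all tested loci, beside -0.25, -0.13 and -0.16 for the HD2C loci.

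At V3, 4 loci of the drought list were called higher and 7 lower in GmNAC81-3, beside 1.75% and 1.69% of all tested loci, and the median log2 fold change of the list was -1.33, within the range of the HD2C loci. DESeq2 called 8 of the list higher and 20 lower, beside 1434 higher and 1694 lower over all tested loci. A fit of only the V3 groups called none of the list, beside 8 higher and 6 lower over all tested loci. Library totals gave 1 higher and 39 lower, beside 176 higher and 17501 lower over all tested loci. Glyma.07G033500, named after PDR12, an Arabidopsis transporter that imports ABA, averaged 0.764 ± 0.165 CPM in GmNAC81-3 V3 and 27.9 ± 19.6 CPM in BR16 V3 (SD, n = 3 each). Glyma.13G088700, named after annexin 1, a calcium-dependent membrane-binding protein, averaged 11.4 ± 3.02 CPM in GmNAC81-3 V3 and 91.8 ± 39.1 CPM in BR16 V3 (SD, n = 3 each). On the other side, Glyma.14G090400, named after the squalene epoxidase SQE1 of sterol synthesis, averaged 24.1 ± 14.2 CPM in GmNAC81-3 V3 and 3.94 ± 2.07 CPM in BR16 V3 (SD, n = 3 each), and was not called without BR16 V3 replicate 3 or GmNAC81-3 V3 replicate 2. Glyma.09G203500, named after PCK1, a phosphoenolpyruvate carboxykinase of gluconeogenesis, averaged 32.2 ± 3.55 CPM in GmNAC81-3 V3 and 10.7 ± 0.812 CPM in BR16 V3 (SD, n = 3 each), and was not called with library totals. The count itself rested on single libraries, with 1 higher and 2 lower without BR16 V3 replicate 3 and 6 higher and 12 lower without BR16 V3 replicate 1. Over all tested loci, the calls without BR16 V3 replicate 3 fell to 89 higher and 62 lower, so that fall was not particular to the list.

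**Figure D4:**
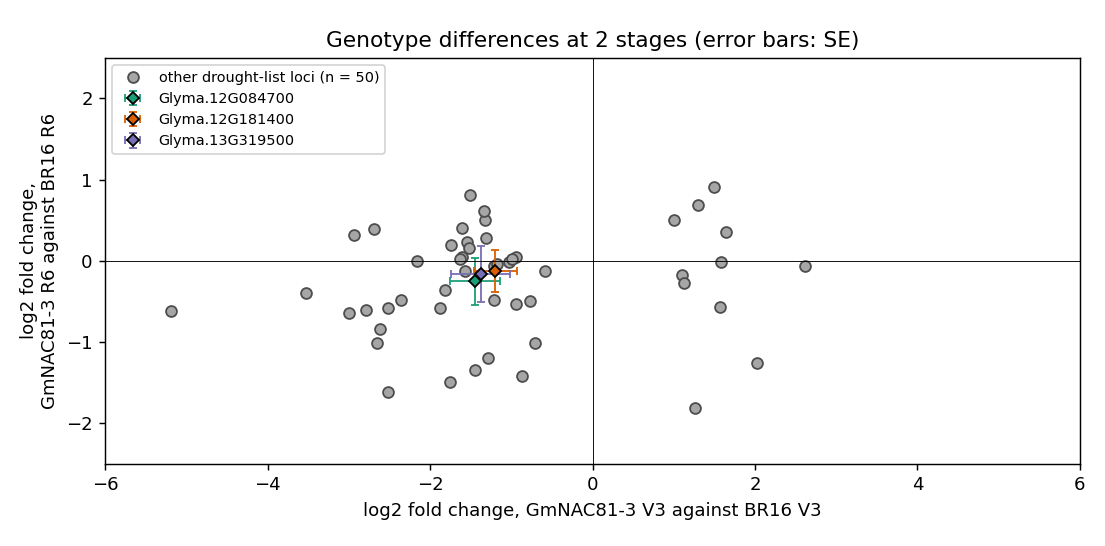
Log2 fold change of GmNAC81-3 against BR16 at V3 (x axis) and at R6 (y axis) for the 50 other tested loci of the drought list (grey circles) and the 3 HD2C loci (coloured diamonds with SE bars). The HD2C loci lie between -1.45 and -1.20 at V3 and between -0.25 and -0.13 at R6, inside the cloud of the list, which was chosen on the x axis.

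Between the stages, 21 loci of the drought list were called higher and 10 lower at R6 in GmNAC81-3, beside 16.5% and 20.1% of all tested loci, with a median log2 fold change of 0.85. In BR16, 9 were called higher and 14 lower, beside 15.1% and 19.6% of all tested loci, with a median of -0.25. The HD2C loci had positive fold changes in both genotypes. The loci Glyma.08G032800 and Glyma.05G225900 are both named after OXS3, a stress tolerance gene of Arabidopsis. In GmNAC81-3 they averaged 5.42 ± 3.70 CPM and 6.04 ± 4.50 CPM at R6, against 0.144 ± 0.122 CPM and 0.193 ± 0.267 CPM at V3 (SD, n = 3 each). The GmNAC81-3 V3 libraries held 2 to 8 and 0 to 14 counts of these loci, in part under the floor of 3 counts. In BR16, Glyma.08G032800 averaged 6.95 ± 3.20 CPM at R6 and 0.506 ± 0.413 CPM at V3 (SD, n = 3 each), with 2 to 62 counts per V3 library. Glyma.04G044900, named after the zinc finger protein ZAT10, averaged 40.7 ± 23.2 CPM in BR16 R6 and 2.04 ± 1.33 CPM in BR16 V3 (SD, n = 3 each).

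The lowest fold changes between the stages included that of Glyma.15G250100, named after NCED3, an enzyme of ABA synthesis. It averaged 1.41 ± 0.463 CPM in GmNAC81-3 R6, against 127 ± 145 CPM in GmNAC81-3 V3, and 0.873 ± 0.396 CPM in BR16 R6, against 51.6 ± 24 CPM in BR16 V3 (SD, n = 3 each). Glyma.05G208700, named after the aquaporin PIP1;4, had 0 to 2 counts in BR16 R6 libraries, under the floor of 3 counts, and 90 to 351 counts in BR16 V3 libraries. Glyma.03G168200, named after PDR12, had 0 to 3 counts in GmNAC81-3 R6 libraries and 52 to 104 counts in GmNAC81-3 V3 libraries. Both loci had their high counts at V3, the stage that chose the list and through which they passed the filter. For the difference of the stage changes, the list had a median log2 value of 1.14 and edgeR called 0 loci, beside 0.071% of all tested loci. An unadjusted p under 0.05 was found for 21 of the 50, beside 13.1% of all tested loci. DESeq2 called 9 of the list higher and 4 lower, beside 483 higher and 562 lower over all tested loci. The V3 libraries that chose the list enter this difference too.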

How the data were processed

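The authors isolated RNA from the third leaf of 3 plants per group, made stranded TruSeq libraries, mapped the reads and deposited raw read counts per transcript model, without normalization. The submitters' processing notes name HISAT2 2.1.0 and featureCounts, while the study's methods name Sickle, Bowtie 2 and Rsubread with the soybean genome Wm82.a2.v1. Which of these made the table, and whether counting used strand, is not given in the sources used here. Of the counts under 50, 75.0 to 86.1% were even, so counts may overstate fragments.

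Counts of the 84782 transcript models were summed to 52660 loci, and the single transgene terminator entry was added to Glyma.12G022700. In R 4.3.3, edgeR 4.0.16 filtered loci with filterByExpr, scaled libraries with TMM and fitted the 4 group means to all 12 libraries. Contrasts were tested with the quasi-likelihood test and Benjamini-Hochberg adjustment over 39443 loci. A call required an adjusted p under 0.05 together with a log2 fold change beyond 1 in either direction. With 3 plants and 3 libraries per group, each library was taken as 1 plant, which the labels do not state, and p-values measure the spread between libraries. Likeness used log2 CPM with a prior count of 2. The model was run on simulated data for the genotype contrast at R6 only, with large changes placed at loci with many counts. That run does not test small differences, low counts or the other contrasts.

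Libraries of GmNAC81-3 V3 and BR16 V3 with the same replicate number in the titles deviated from their group means together. Across loci, r was 0.404, 0.221 and 0.129 for replicates 1, 2 and 3. However, GmNAC81-3 V3 replicate 3 had a higher r of 0.208 with BR16 V3 replicate 2. The numbers therefore do not clearly pair replicates 2 and 3, and the replicate block was used only as an alternative. At R6 the correlations between libraries of the same number were negative. Alternatives were DESeq2 1.42.0, its size factors, no filter or at least 10 counts in every library, the 2 compared groups alone, a replicate block, an adjusted p limit of 0.01, no fold limit, transcript models and each library left out. Scaling by library totals, with or without the 3 loci with most counts, was added after seeing the data, as were the within-library ratios, the neighbouring loci and the rubisco activase check.

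The members and the lists were chosen with earlier results of these data known. Named besides the HD2C loci are the 3 loci most like each one and, from the drought list, up to 2 called loci with the highest and 2 with the lowest fold change per contrast at V3 and between stages. Apart from the rubisco activase check, lists of other deacetylases, acetyltransferases, nucleolar proteins, ABA receptors, replication factors and cell type markers were not analysed here. The reason is that the gene table used pairs no description with these locus identifiers. No sequence was printed, since the reference tables used here hold none for these loci.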

Additional observations from a re-analysis of the deposited data

How the results depend on the processing

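At R6, the log2 fold changes of the HD2C loci stayed negative and without a call under every alternative that kept all libraries (lowest adjusted p 0.614 for Glyma.12G084700, 0.878 for Glyma.12G181400 and 0.880 for Glyma.13G319500, edgeR quasi-likelihood or DESeq2). With each library left out in turn they ran from -0.35 to -0.17, from -0.39 to 0.032 and from -0.59 to 0.039, above 0 only without GmNAC81-3 R6 replicate 1. For the same 3 loci these ranges were -1.99 to -1.24, -1.42 to -1.01 and -1.89 to -1.16 for GmNAC81-3 V3 against BR16 V3, 2.03 to 2.77, 1.36 to 1.83 and 1.41 to 2.34 for GmNAC81-3 R6 against V3, 0.86 to 1.17, 0.40 to 0.65 and 0.47 to 0.78 for BR16 R6 against V3, and 0.995 to 1.74, 0.82 to 1.29 and 0.80 to 1.73 for the difference of the stage changes. With library totals, the values were -2.48, -2.25 and -2.43 at V3, 3.26, 2.69 and 2.88 between the stages in GmNAC81-3, and 2.05, 1.95 and 2.09 for the difference. With totals less the 3 loci with most counts, they were -2.12, -1.86 and -2.07 at V3, 3.14, 2.5 and 2.73 in GmNAC81-3, 1.34, 0.85 and 0.90 in BR16, and 1.80, 1.65 and 1.83 for the difference. The median of all tested loci moved with them, to -0.67, 0.89, 0.28 and 0.59. With the replicate block, whose numbers did not pair the R6 libraries, the R6 values were -0.25, -0.13 and -0.20, and the block changed no call of an HD2C locus there.

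Counts of called loci were less stable. At R6 they were 26 higher and 13 lower, but 8 and 0 with at least 10 counts, 8 and 4 with the 2 groups alone, 14 and 5 with the block, 11 and 4 at an adjusted p of 0.01, 12 and 7 with library totals, 16 and 8 with totals less 3 loci, and 122 and 102 with DESeq2. Leaving out 1 library gave 6 to 32 higher and 3 to 25 lower, fewest without BR16 R6 replicate 1. At V3 they were 691 and 667, but 8 and 6 with the 2 groups alone, 143 and 63 at 0.01, 1434 and 1694 with DESeq2, 176 and 17501 with library totals, 306 and 6921 with totals less 3 loci, and, left out in turn, from 89 and 62 without BR16 V3 replicate 3 to 1053 and 1766 without GmNAC81-3 V3 replicate 1. Between stages, at least 10 counts gave 3578 higher and 4596 lower loci in BR16, against 5945 and 7731, and 3829 higher in GmNAC81-3, against 6493, since fewer loci were tested, while library totals gave 18682 and 3975 in GmNAC81-3, and totals less 3 loci 15993 and 4397, against 6493 and 7917. The difference of the stage changes gave 9 and 19, but 1 and 5 with the block, 1 and 0 at 0.01, 483 and 562 with DESeq2, 14 and 4 with totals less 3 loci, 527 higher with library totals, 5 higher with DESeq2's size factors, 31 lower with at least 10 counts and, left out in turn, from 1 and 0 without BR16 V3 replicate 2 to 192 and 100 without GmNAC81-3 V3 replicate 1. The drought list at V3 had 1 and 39 calls with library totals, 1 and 24 with totals less 3 loci and 1 and 2 at 0.01, and for the difference of the stage changes 5 higher with library totals. With at least 10 counts it had 4 and 4 calls between the stages in BR16 and 10 and 5 in GmNAC81-3. Counts of 26, 106 and 50 limit the V3 values.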

Other observations

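The HD2C loci were set beside the 4 tested loci on either side of each in the order of locus numbers, a check added after seeing the data. For GmNAC81-3 V3 against BR16 V3, the 8 neighbours of Glyma.12G181400 had log2 fold changes from -0.94 to 0.37, against -1.20 for the locus itself, and those of Glyma.13G319500 from -0.64 to 0.60, against -1.38. The neighbours of Glyma.12G084700 ran from -2.48 to 1.06, a range that holds its own value of -1.45. The HD2C loci were chosen on this V3 contrast and the neighbours were not. A value below those of the neighbours therefore follows in large part from the choice, and nothing is read from it. For GmNAC81-3 R6 against BR16 R6, the neighbours ran from -0.39 to 0.50 for Glyma.12G084700, from -1.05 to 0.45 for Glyma.12G181400 and from -1.61 to 0.56 for Glyma.13G319500, and each HD2C locus lay inside the range of its neighbours.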
